A study of Mus musculus with 11 samples.

Results

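The genes described here encode the proteins of the cytosolic ribosome, read out of polyA RNA sequencing of mouse hippocampal neurons in culture. They were taken by name: a gene counted as a member when its symbol began with Rpl or Rps and a number, or was Rplp0, Rplp1 or Rplp2, without the Rps6k kinases and without symbols that mark a pseudogene with -ps. This gave 91 members of 48709 gene IDs in the count tables. The rule also took Rps19bp1, which binds Rps19 and is no ribosomal protein but is counted here with the small subunit, and 6 genes that the annotation lists as pseudogenes under such a name. Neurons were kept for 10 days in an ordinary incubator at 20% O2. The hypoxia group (5 libraries) was then held at 1% O2 for 4 hours in a hypoxia workstation, and the control group (6 libraries) came from the same isolation and stayed at 20% O2. The labels do not say whether the libraries of a group are separate dishes or animals. The p-values therefore weigh the difference between groups against the spread between these libraries, which may be technical.

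A ribosome has a small subunit, which reads the mRNA, and a large subunit, which joins amino acids into a chain, and nearly every ribosomal protein is needed in equal number in each particle. The mRNAs of these proteins start with a run of pyrimidines, the terminal oligopyrimidine (TOP) tract, through which the mTOR kinase complex and the RNA-binding protein LARP1 set their translation together. Mammalian genomes also hold many processed pseudogenes, copies of ribosomal protein mRNAs written back into the chromosomes, so that a short read from such an mRNA can match several places.

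Under hypoxia the ribosomal protein genes changed little and not in 1 direction. Of the 91 members, 83 had enough counts to be tested, and 72 of these 83 differed by less than 25% between hypoxia and control. With edgeR's quasi-likelihood test, adjusted over all 16235 genes tested, 7 members rose in hypoxia, 8 fell, and 68 did not pass an adjusted p of 0.05. Of all genes tested, 22.9% were called, 10.1% higher and 12.8% lower, so that the members' shares of 8.43% higher and 9.64% lower were near the background. The median log2 fold change of hypoxia over control was 0.02 over the members and −0.02 over all genes tested. The count of members called higher was 11 without control 1 and 4 without control 2. The median was −0.004 without hypoxia 1 and −0.01 without control 2.

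The calls in the 2 directions fell at different levels. All values below are CPM, counts per 1000000 counts of a library scaled by the trimmed mean of M values (TMM). Members with a mean of at least 20 CPM over the 11 libraries are called abundant here, and those under 20 CPM scarce. Of the 35 members at or above 20 CPM, 7 rose and 0 fell. Of the 56 members below 20 CPM, 48 were tested, of which 0 rose and 8 fell. In both empty directions edgeR also had 0 members at an unadjusted p of 0.05, and DESeq2 called 0. Without control 1, Rpl22l1 was called higher among the scarce members, and without control 5 Rps7 was, which makes 1 in each case. Just inside the line stood Rpl7a with a mean of 22.1 CPM, Rpl14 with 21.1 CPM and Rps19bp1 with 20.5 CPM. Just outside it stood Rps7 with 19.9 CPM and Rpl18 with 17.9 CPM. None of these was called.

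The background differed between the same levels. Among all 7492 genes at or above 20 CPM, 16.1% were called higher and 12.4% lower, with a median log2 fold change of 0.01, against 20% of the members called higher and a member median of 0.07. Of the 35 members 30 had a log2 fold change above 0, against 55.0% of all genes at that level. Among all 8743 genes under 20 CPM, 4.98% were called higher and 13.1% lower, with a median of −0.07, against 16.7% of the tested members called lower and a member median of −0.14. Of the 48 tested members 15 were above 0 and 33 below, against 38.1% of genes at that level above 0. The shares called in these directions were near those of other genes at the same level. In the opposite directions the members had 0 of 35 called lower, against the 12.4%, and 0 of 48 called higher, against the 4.98%. These differences from the background were not tested. The median of the scarce members was −0.07 without control 5. Members of both subunits took part: 3 of 16 small-subunit and 4 of 19 large-subunit members rose among the abundant ones, while 2 of 17 small-subunit and 6 of 31 large-subunit members fell among the scarce ones tested.

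**Figure D1:**
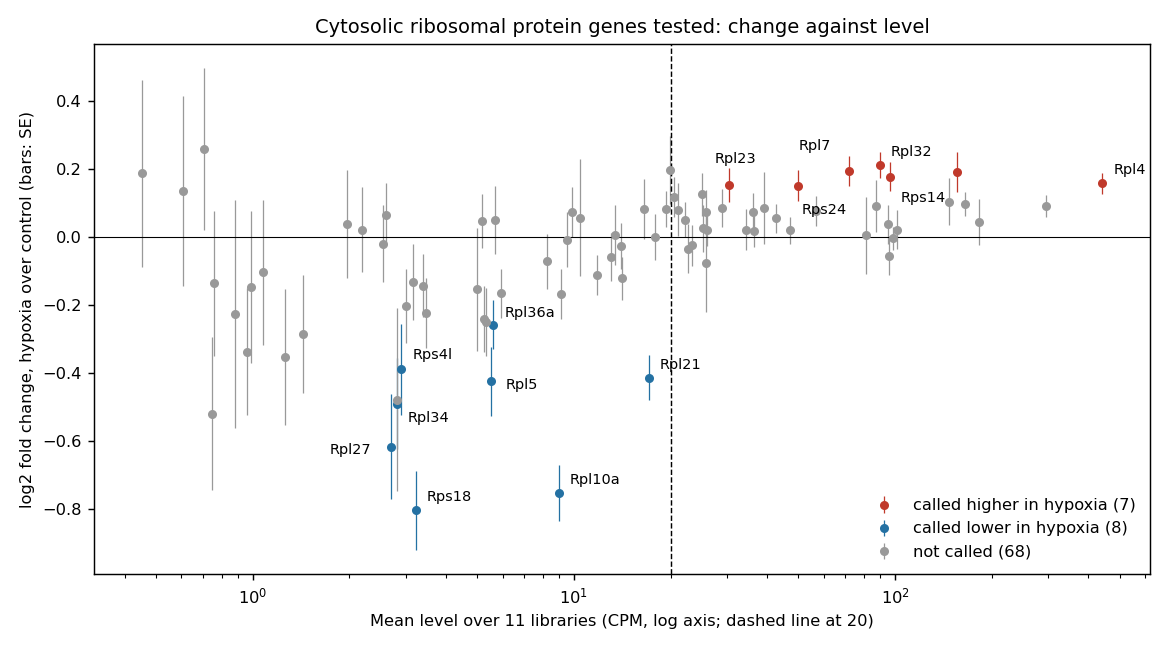
Log2 fold change of hypoxia over control (vertical axis, bars are standard errors) against the mean CPM over 11 libraries (horizontal log axis) for the 83 members tested, with a dashed line at 20 CPM. The 7 members called higher (red) all lie right of the line, the 8 called lower (blue) all lie left of it, and 68 were not called (grey).

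Library totals lay between 22688096 and 31917157 counts in hypoxia and between 16619493 and 31416241 counts in control, where control 1 was the smallest. Neuronal markers summed to 8574 to 9085 CPM in hypoxia and 8314 to 8995 CPM in control. Syn1 alone was called among the 8 neuronal markers, as higher (log2 fold change 0.11, edgeR adjusted p = 0.0244), and the list median was −0.001. At an unadjusted p of 0.05 in edgeR, 2 of the 8 were higher and 1, Tubb3, was lower (log2 fold change −0.18). Neurod6 alone was called among 5 excitatory markers, as higher (log2 fold change 0.13, edgeR adjusted p = 0.0188). None of 4 interneuron markers was called, with a list median of −0.09 and sums of 312 to 351 CPM in hypoxia and 313 to 356 CPM in control. Astrocyte markers were present too, at 1418 to 1550 CPM in hypoxia and 1435 to 1643 CPM in control, with Aqp4 lower in hypoxia. Of 6 oligodendrocyte-lineage markers, Olig1 and Olig2 fell, and the list summed to 91.1 to 120 CPM in hypoxia and 108 to 152 CPM in control. Of 6 fibroblast and mural markers, Pdgfrb rose, and the list summed to 113 to 191 CPM in hypoxia and 122 to 151 CPM in control. Of 4 markers of dividing cells none was called by edgeR or DESeq2, with 3 lower in hypoxia at an unadjusted p of 0.05, and the list summed to 68.3 to 86.5 CPM in hypoxia and 75.9 to 101 CPM in control. The 4 endothelial markers summed to 19.8 to 25.9 CPM in hypoxia and 20.0 to 29.8 CPM in control, with Kdr at a mean of 22.2 CPM and Cldn5 at 0.0393 CPM. The 5 microglial markers summed to 13.5 to 16.2 CPM in hypoxia and 13.8 to 15.6 CPM in control, with Aif1 at a mean of 8.44 CPM and P2ry12 at 0.238 CPM. Whether these shares of cells play a part in the members' values was not tested, and in such bulk RNA fewer cells of a type and less RNA per cell cannot be told apart.

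Sequence matters for these genes because the reads were 50 bases long. For each protein-coding member, every 50-base window of its coding sequence was looked up in the transcripts of all other annotated genes on either strand (GENCODE M21). Rpl32 and Rps18 are shown because they were called in opposite directions, with the lowest p of any abundant member and of any small-subunit member. Capitals mark bases that lie in at least 1 window found in no other annotated gene. The Rpl32 gene lies on chromosome 6 (GRCm38 115805505 to 115808747, minus strand) and Rps18 on chromosome 17 (33951999 to 33956001, minus strand). Each stretch is 300 coding bases long, read 5′ to 3′ on the gene's own strand: coding bases 106 to 405 of Rpl32 and 157 to 456 of Rps18.
Rpl32: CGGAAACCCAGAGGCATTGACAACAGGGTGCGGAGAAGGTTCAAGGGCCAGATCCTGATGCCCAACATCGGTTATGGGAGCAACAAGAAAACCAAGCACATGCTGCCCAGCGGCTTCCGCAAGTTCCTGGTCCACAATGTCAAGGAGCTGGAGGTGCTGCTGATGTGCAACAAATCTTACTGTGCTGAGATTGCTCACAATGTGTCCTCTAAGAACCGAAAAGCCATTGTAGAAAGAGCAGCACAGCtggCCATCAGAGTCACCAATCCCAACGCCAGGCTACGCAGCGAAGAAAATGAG
Rps18: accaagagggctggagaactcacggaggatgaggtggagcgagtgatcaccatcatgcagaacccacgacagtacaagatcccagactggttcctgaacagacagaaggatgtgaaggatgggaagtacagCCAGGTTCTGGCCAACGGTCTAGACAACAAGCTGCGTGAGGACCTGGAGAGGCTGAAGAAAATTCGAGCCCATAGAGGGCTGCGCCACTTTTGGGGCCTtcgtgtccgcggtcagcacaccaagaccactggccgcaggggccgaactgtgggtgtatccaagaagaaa
In Rpl32, 222 of 356 windows were its own, and 379 of its 405 coding bases lie in such windows. In Rps18, 50 of 407 windows were its own, and 99 of its 456 coding bases lie in such windows. Windows of Rps18 were shared with 13 other genes, and the pseudogene Gm11361 alone held 296 of them.

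Scarce members had less coding sequence of their own than abundant ones. The median share of coding windows found in no other gene was 22.5% for the members at or above 20 CPM and 0% for those below. Over all windows of the transcript, with its untranslated parts, the medians were 64.7% and 28.4%. Of 85 protein-coding members, 31 had no coding window of their own, and only Rpl15, Rpl41 and Rpl27a of these were at or above 20 CPM. Outside the coding sequence such members could still have own windows, as in Rps16, where 58.4% of the windows of the whole transcript were its own. In Rps27 this share was 1.35%. Across 81 tested members, which share the 11 libraries, Spearman's rho is given as a description. For the own coding share it was 0.71 with the level in CPM and 0.52 with the log2 fold change. For the own share of the whole transcript it was 0.62 and 0.50. Among the 30 tested members with no own coding window, 4 fell, against 12.8% of all genes tested, and 0 rose, against 10.1%. None of them was higher at an unadjusted p of 0.05 in edgeR, and DESeq2 called 0 higher. Only 3 of them were at or above 20 CPM, and of all genes under 20 CPM 13.1% were called lower and 4.98% higher. Among the 22 tested members with more than 20% own coding windows, 6 rose and 1, Rpl34, fell. Of these, 20 were at or above 20 CPM, where 16.1% of all genes were called higher and 12.4% lower. Own share and level went together, and their parts in the calls were not told apart. Of the 29 members with an own coding share above 0 and up to 20%, 12 were at or above 20 CPM. Among these 12 was Rpl23 at 13.5%, which was called higher. The sources used here do not say how the counter treated reads with several matches. Levels and changes of the scarce members are therefore uncertain, as are those of abundant members with few own coding windows. The part of shared sequence in these values was not tested.

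**Figure D2:**
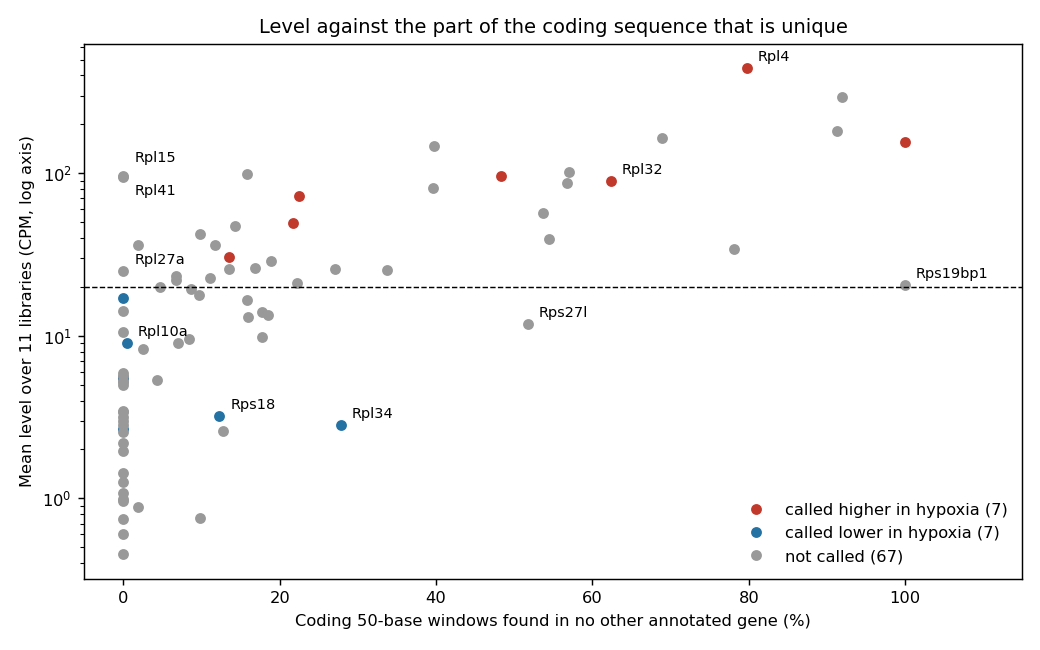
Mean CPM over 11 libraries (vertical log axis) against the percentage of 50-base coding windows found in no other annotated gene (horizontal axis) for 81 tested protein-coding members, with a dashed line at 20 CPM. Members called higher (red) include Rpl4 at 79.7% and Rpl32 at 62.4%, while members called lower (blue) include Rps18 at 12.3% and Rpl10a at 0.501%.

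Among the abundant large-subunit proteins, Rpl4 and Rpl32 stood apart most clearly. Rpl4 encodes a protein whose long extension reaches the exit tunnel of the ribosome. It had 455, 472, 460, 470 and 483 CPM in the hypoxia libraries, against a lowest value of 400, a median of 424 and a highest value of 429 CPM in control. Every hypoxia library lay above every control library. Its mean was 468 ± 10.9 CPM in hypoxia and 420 ± 10.5 CPM in control (SD, n = 5 and 6), a log2 fold change of 0.16 with a standard error of 0.03 (edgeR adjusted p = 0.00168). The gene lies on chromosome 9 (GRCm38 64173375 to 64178666).

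Rpl32, whose protein sits on the outer face of the large subunit, had 93.0, 101, 94.1, 98.1 and 97.2 CPM in hypoxia, against a lowest value of 78.5, a median of 84.2 and a highest value of 88.6 CPM in control. The groups did not overlap. Its log2 fold change was 0.21 with a standard error of 0.04 (edgeR adjusted p = 0.000900). The gene overlaps Cand2, and reads of overlapping genes cannot be told apart where strand is not known. Rpl7, another large-subunit protein, had 76.4, 76.5, 73.6, 77.9 and 81.4 CPM in hypoxia, against a lowest value of 63.5, a median of 67.0 and a highest value of 73.8 CPM in control. Control 1 alone exceeded the lowest hypoxia library, hypoxia 3. The log2 fold change of Rpl7 was 0.19 with a standard error of 0.04 (edgeR adjusted p = 0.00501). Rpl23 rose more weakly, with 32.1 ± 0.739 CPM in hypoxia and 28.9 ± 2.09 CPM in control and a log2 fold change of 0.15 (edgeR adjusted p = 0.0363). Its largest adjusted p when 1 library was left out or a setting was changed was 0.140.

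In the small subunit, Rps14 and Rps24 were among the members that rose. Rps14 encodes a protein of the platform of the small subunit. It had 103, 99.1, 98.7, 101 and 114 CPM in hypoxia, against a lowest value of 88.4, a median of 90.5 and a highest value of 96.5 CPM in control. The groups did not overlap, and hypoxia 5 stood above the other 4. Its log2 fold change was 0.18 with a standard error of 0.04 (edgeR adjusted p = 0.00589). Rps14 lies on chromosome 18 and overlaps Ndst1.

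Rps24 had 52.6 ± 2.16 CPM in hypoxia and 47.4 ± 2.90 CPM in control, a log2 fold change of 0.15 (edgeR adjusted p = 0.0263, up to 0.0856 in the alternatives). Both its highest control, control 1 at 51.8 CPM, and its lowest hypoxia library, hypoxia 3 at 50.8 CPM, lay in the overlap.

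Without overlap between the groups, 3 members of the 83 tested were higher in hypoxia, against 6.72% of all genes tested, and 4 were lower, against 7.26% of all genes tested. The 3 higher ones were the abundant Rpl4, Rpl32 and Rps14, 3 of 35, against 11.1% of all genes at or above 20 CPM. No abundant member was lower without overlap, against 7.38% of genes at that level.

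Of the 3 members with the most counts, Rps3 and Rpl8 were not called. Rps3, a small-subunit protein at the mRNA entry channel that also takes part in DNA repair, had 298, 295, 297, 316 and 318 CPM in hypoxia, against a lowest value of 275, a median of 287 and a highest value of 298 CPM in control. The groups overlapped. Its mean was 305 ± 11.3 CPM in hypoxia and 286 ± 7.82 CPM in control, a log2 fold change of 0.09 (edgeR adjusted p = 0.0646). Rpl8 had 195, 178, 185, 178 and 194 CPM in hypoxia, against a lowest value of 148, a median of 187 and a highest value of 205 CPM in control. The hypoxia libraries of Rpl8 all lay inside the control range, and its adjusted p was 0.692 (edgeR). Rplp0, the base of the stalk that recruits elongation factors, had 153 ± 7.12 CPM in hypoxia and 143 ± 17.1 CPM in control (edgeR adjusted p = 0.312). Of the stalk proteins themselves, Rplp1 had 81.7 CPM in hypoxia and 81.2 CPM in control, Rplp2 had 25.6 CPM in hypoxia and 25.04 CPM in control, and neither was called. Of the 35 abundant members, 5 had a log2 fold change below 0, among them Rps15a, Rpl15, Rps26 and Rpl6, and none of the 5 was called.

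**Figure D3:**
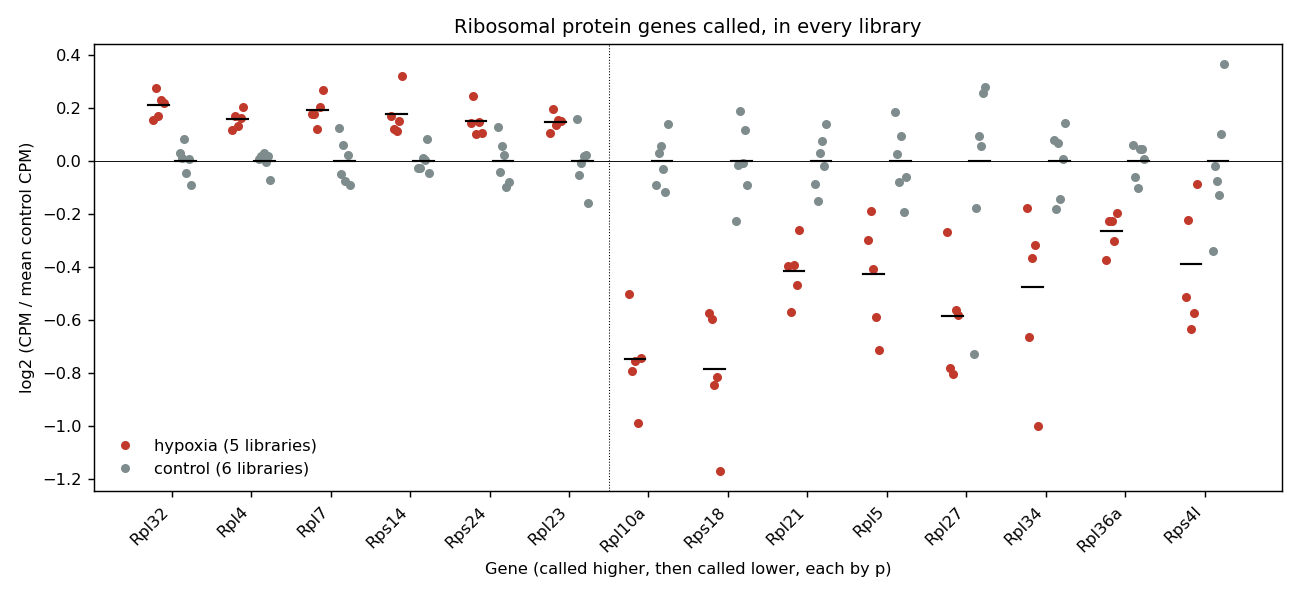
Log2 of CPM over the mean control CPM (vertical axis) in each of 5 hypoxia libraries (red) and 6 control libraries (grey) for 14 of the 15 members called, those called higher left of the dotted line and the 8 called lower right of it. Black lines are the group means on this scale, and the hypoxia points of Rpl4, Rpl32 and Rps14 lie above, and those of Rpl10a, Rps18, Rpl21 and Rpl36a below, every control point.

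Among the scarce members, Rpl10a and Rps18 fell most. Rpl10a encodes a large-subunit protein at the stalk that frames the tRNA exit site, and 137 to 356 counts stood behind each library's value. It had 7.76, 6.36, 6.53, 5.54 and 6.57 CPM in hypoxia, against a lowest value of 10.2, a median of 11.01 and a highest value of 12.1 CPM in control. The groups did not overlap. Its mean was 6.55 ± 0.796 CPM in hypoxia and 11.02 ± 0.736 CPM in control, a log2 fold change of −0.75 with a standard error of 0.08 (edgeR adjusted p = 8.48e-06). Only 0.501% of its coding windows were its own.

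Rps18, a small-subunit protein of the head that contacts the large subunit, rested on 55 to 141 counts per library. It had 2.68, 2.64, 2.22, 2.26 and 1.77 CPM in hypoxia, against a lowest value of 3.41, a median of 3.95 and a highest value of 4.54 CPM in control. All hypoxia libraries lay below all control libraries, with a log2 fold change of −0.80 and a standard error of 0.12 (edgeR adjusted p = 0.000130). The gene overlaps Vps52. Rpl21 had 14.7, 13.03, 14.7, 13.9 and 16.1 CPM in hypoxia, against a lowest value of 17.4, a median of 19.4 and a highest value of 21.3 CPM in control. Again the groups did not overlap, and the log2 fold change was −0.42 with a standard error of 0.07 (edgeR adjusted p = 0.000303). No coding window of Rpl21 was its own, and 82 other genes, 81 of them pseudogenes, shared windows with its transcript.

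Rpl5, which carries the 5S RNA into the large subunit and, when free, binds the p53 regulator Mdm2, had 5.09, 5.50, 4.71, 4.16 and 3.82 CPM in hypoxia, against a lowest value of 5.47, a median of 6.19 and a highest value of 7.11 CPM in control. The groups met at hypoxia 2 and control 5, and the log2 fold change was −0.43 with a standard error of 0.10 (edgeR adjusted p = 0.00627). It overlaps Fam69a. Its partner in carrying the 5S RNA, Rpl11, had 2.99 ± 0.460 CPM in hypoxia and 3.28 ± 0.314 CPM in control and was not called (edgeR adjusted p = 0.442). Rpl27 had 2.63, 1.84, 1.81, 2.14 and 2.12 CPM in hypoxia, against a lowest value of 1.91, a median of 3.34 and a highest value of 3.84 CPM in control. Control 1 was its only control library inside the hypoxia range (log2 fold change −0.62, standard error 0.15, edgeR adjusted p = 0.00865).

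Rpl34, Rpl36a and Rps4l also fell, with smaller or less certain differences. Rpl34 had 2.32 ± 0.493 CPM in hypoxia and 3.22 ± 0.288 CPM in control (log2 fold change −0.49, edgeR adjusted p = 0.0144). Rpl36a had 5.07 ± 0.249 CPM in hypoxia and 6.08 ± 0.276 CPM in control, without overlap (log2 fold change −0.26, edgeR adjusted p = 0.0151). Rps4l, annotated as a transcribed processed pseudogene despite its symbol, had 2.48 ± 0.421 CPM in hypoxia and 3.26 ± 0.549 CPM in control (log2 fold change −0.39, edgeR adjusted p = 0.0472). The adjusted p of Rpl36a was up to 0.0814 and that of Rps4l up to 0.116 in the alternatives. Without overlap, 4 of the 48 scarce members tested were lower, against 7.15% of all genes under 20 CPM, and none was higher, against 3.01%.

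The other scarce members were not called. In the small subunit these included Rps7, Rps2, Rps27l, Rps10, Rps27a, Rps16, Rps12, Rps28, Rps13, Rps23, Rps27, Rps6 and Rps29. Rps6, whose protein is phosphorylated downstream of mTOR, had only 0.845 ± 0.225 CPM in hypoxia and 1.05 ± 0.159 CPM in control, from 15 to 35 counts, with no coding window of its own. In the large subunit they were Rpl18, Rpl22l1, Rpl36al, Rpl37, Rpl37a, Rpl38, Rpl35a, Rpl35, Rpl13a, Rpl13, Rpl12, Rpl3, Rpl9, Rpl10, Rpl28, Rpl17, Rpl11, Rpl31, Rpl26, Rpl19, Rpl36, Rpl29, Rpl24, Rpl37rt and Rpl23a. Of the 83 tested, 8 more members had an unadjusted p under 0.05 without being called: Rps3 and Rpl22 lay above 0, and Rps10, Rpl13, Rpl3, Rpl9, Rpl17 and Rpl24 below. The 8 untested members were Rpl3l, Rps27rt, Rps3a3, Rpl39l, Rpl6l, Rps3a2, Rpl10l and Rps12l1, of which Rpl10l and Rps12l1 had no count in any library. If the line of 20 is read as a mean of 20 plain counts per library, 11 members lie below it, 3 of them tested and 0 called by edgeR, at an unadjusted p of 0.05 in edgeR or by DESeq2.

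Several ribosomal proteins have a paralog of like name, and of these paralogs only Rps4l was called. Rpl22 had 163, 169, 171, 176 and 180 CPM in hypoxia, against a lowest value of 149, a median of 162 and a highest value of 167 CPM in control (edgeR adjusted p = 0.0683). Rpl22l1, which can replace it in the ribosome, had 18.0, 17.3, 17.5, 16.9 and 15.4 CPM in hypoxia, against a lowest value of 13.9, a median of 15.3 and a highest value of 21.5 CPM in control (edgeR adjusted p = 0.557). The highest control of Rpl22l1 was control 1. Rpl7l1, a relative of Rpl7, had 34.5 ± 2.71 CPM in hypoxia and 34.0 ± 2.49 CPM in control (edgeR adjusted p = 0.847).

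The pairs Rps27 with Rps27l and Rpl36a with Rpl36al are shown by their first 90 coding bases, since each pair encodes nearly the same protein from separate genes. Capitals mark the bases at which the members of a pair differ.
Rps27: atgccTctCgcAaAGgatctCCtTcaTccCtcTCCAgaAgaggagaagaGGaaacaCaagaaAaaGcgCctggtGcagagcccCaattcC
Rps27l: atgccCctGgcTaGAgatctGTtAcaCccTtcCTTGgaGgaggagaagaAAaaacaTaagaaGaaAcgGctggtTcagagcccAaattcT
Rpl36a: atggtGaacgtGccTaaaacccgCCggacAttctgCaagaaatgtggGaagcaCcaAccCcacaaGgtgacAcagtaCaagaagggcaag
Rpl36al: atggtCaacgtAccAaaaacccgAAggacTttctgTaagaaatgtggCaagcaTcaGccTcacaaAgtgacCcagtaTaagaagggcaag
Over their whole coding sequence Rps27 and Rps27l differed at 60 of 252 bases, and Rpl36a and Rpl36al at 39 of 318, and neither pair shared a 50-base window. Rps27 had 0.921, 1.13, 1.09, 1.21 and 0.853 CPM in hypoxia, against a lowest value of 0.717, a median of 1.02 and a highest value of 1.62 CPM in control. Rps27l, a p53 target, had 10.6, 10.6, 11.9, 11.2 and 12.1 CPM in hypoxia, against a lowest value of 11.8, a median of 12.4 and a highest value of 12.5 CPM in control. Neither was called (edgeR adjusted p = 0.777 for Rps27 and 0.184 for Rps27l). Rpl36a fell, as given above, while Rpl36al had 14.6, 11.9, 13.1, 14.6 and 13.3 CPM in hypoxia, against a lowest value of 13.8, a median of 14.7 and a highest value of 15.7 CPM in control. Rpl36al was not called (edgeR adjusted p = 0.183), and the difference between the members of the pair was not tested.

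Of the remaining pairs, the copies Rpl3l, Rpl39l and Rpl10l, which in the body are largely restricted to muscle or testis, were at most at 0.364 CPM in any hypoxia library and 0.317 CPM in any control library. Their parent Rpl3 had 4.84 ± 0.745 CPM in hypoxia and 5.76 ± 0.419 CPM in control. Rpl39 had 26.5 ± 1.18 CPM in hypoxia and 25.3 ± 2.63 CPM in control, and Rpl10 had 5.26 ± 0.334 CPM in hypoxia and 5.12 ± 0.345 CPM in control. Rpl37rt, annotated as a pseudogene, had 0.526 to 1.27 CPM in hypoxia and 0.442 to 0.733 CPM in control, while Rpl37 had 12.9 to 14.7 CPM in hypoxia and 12.4 to 15.4 CPM in control. Rps4x had 41.1 to 47.2 CPM in hypoxia and 39.4 to 43.7 CPM in control, beside its copy Rps4l given above. Rpl6 had 20.97 to 24.7 CPM in hypoxia and 21.3 to 25.99 CPM in control, and Rps12 had 2.26 to 2.83 CPM in hypoxia and 2.06 to 2.95 CPM in control. None of these parents was called, and Rps27rt stayed below 0.11 CPM in every library.

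Summed per library, abundant and scarce members shifted in opposite directions by small amounts. The 35 abundant members summed to 2944 ± 67.1 CPM in hypoxia and 2762 ± 115 CPM in control, and controls 1 and 2 were the lowest. The 56 scarce members summed to 293 ± 10.96 CPM in hypoxia and 313 ± 16.3 CPM in control. The groups overlapped in both sums, which ran from 2880 to 3041 CPM in hypoxia and from 2630 to 2930 CPM in control for the abundant members, and from 285 to 311 CPM in hypoxia and from 293 to 333 CPM in control for the scarce ones. As a share of all counts the 91 members made up 0.322% ± 0.00819 in hypoxia and 0.308% ± 0.0108 in control. Rows named as ribosomal protein pseudogenes, 267 in number and not members, summed to 40.6 ± 1.69 CPM in hypoxia and 36.0 ± 0.950 CPM in control, with no overlap between the groups (38.1 to 42.6 against 34.97 to 37.6 CPM). Of single genes tested, 6.72% were higher without overlap, but no such share was worked out for sums of rows. The counts were uneven over these rows. Over all 11 libraries, 2 rows named after Rpl3 held 3665 counts, 8 after Rps2 held 2124 and 1 after Rpl14 held 1095. Which rows carry the difference was not tested.

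**Figure D4:**
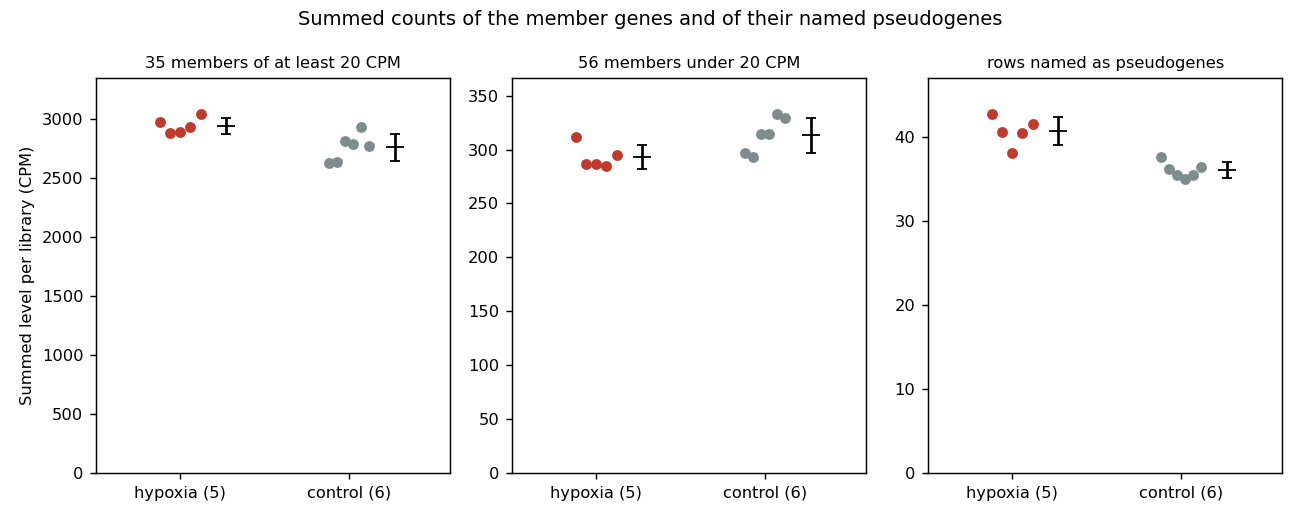
Summed CPM per library (vertical axes from 0) in hypoxia (red, 5 libraries) and control (grey, 6 libraries) for the 35 abundant members, the 56 scarce members and 267 named pseudogene rows, with means and standard deviations in black. The pseudogene rows show hypoxia libraries at 38.1 to 42.6 CPM above control libraries at 34.97 to 37.6 CPM, while both member sums overlap.

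The start of the transcript was examined for the TOP tract. Windows of 30 bases, from 10 before to 20 after the annotated start, were read from RefSeq promoter sequences (GRCm38.p6), and 66 members matched the table. Rps18 and Rps6 are shown as scarce members and Rpl15 and Rpl14 as abundant ones that carry such a tract at the annotated start. Capitals mark the run of C and T that begins at the start base.
Rps18 (chr17:33955646-33955675, minus strand): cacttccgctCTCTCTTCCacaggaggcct
Rps6 (chr4:86857348-86857377, minus strand): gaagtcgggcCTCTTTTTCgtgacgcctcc
Rpl15 (chr14:18270967-18270996, minus strand): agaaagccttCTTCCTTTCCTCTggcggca
Rpl14 (chr9:120571507-120571536, plus strand): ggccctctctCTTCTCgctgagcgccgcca
A C at the first base followed by at least 4 pyrimidines was found in 14 of 66 members (21.2%), against 813 of 27025 genes of the table (3.01%), a gene counting when any of its annotated starts matched. It was found in 5 of 25 abundant members (20%) and in 9 of 41 scarce members (22.0%). A match is a description of letters at an annotated start and says nothing of which start these neurons used. Small nucleolar RNA genes, which guide changes to ribosomal RNA and are often cut from introns of ribosomal protein genes, lay inside 29 of the 91 members, among them 3 of the 7 called higher and 2 of the 8 called lower.

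Other genes of the pathway were read from the same fit. Of 4 ribosomal proteins with other names, Rack1, the signalling scaffold on the small subunit, rose to 264 ± 11.6 CPM in hypoxia, against 242 ± 10.4 CPM in control (log2 fold change 0.13, edgeR adjusted p = 0.0245). Rpsa had 1.94 CPM in hypoxia and 2.004 CPM in control, and Fau had 4.38 CPM in hypoxia and 4.71 CPM in control. Neither was called. Of 15 other mRNAs known to carry a TOP tract, 6 rose and 0 fell by edgeR, against 10.1% of all genes tested called higher and 12.8% called lower. Most of the 15 had a mean of at least 20 CPM, a level at which 16.1% of all genes were called higher and 12.4% lower. Of the 15, 1 lay lower at an unadjusted p of 0.05 in edgeR, and DESeq2 called 0 lower. The translation factor Eif4b had 252 ± 1.92 CPM in hypoxia and 213 ± 3.90 CPM in control (log2 fold change 0.25). The elongation factor Eef1a1 had 970 ± 34.9 CPM in hypoxia and 850 ± 34.8 CPM in control (log2 fold change 0.19), and Eif3f had 131 ± 3.20 CPM in hypoxia and 116 ± 5.11 CPM in control (log2 fold change 0.18). Eif3e, Pabpc1 and Naca made up the rest of the 6. The median log2 fold change of these 15 genes was 0.11.

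Of 16 tested regulators of TOP mRNA translation, 2 rose and 5 fell, beside the same 10.1% and 12.8% of all genes. Eif4ebp1, which holds back the cap-binding protein when mTOR is low, had 11.2 ± 0.715 CPM in hypoxia and 7.31 ± 1.248 CPM in control (log2 fold change 0.61), and Tsc1, an inhibitor of mTOR signalling, had 112 ± 3.27 CPM in hypoxia and 98.5 ± 2.59 CPM in control (log2 fold change 0.19). The S6 kinase Rps6kb2 had 8.82 ± 0.473 CPM in hypoxia and 11.7 ± 0.893 CPM in control (log2 fold change −0.42). Eif4ebp2 with a log2 fold change of −0.21 and Rps6kb1 with −0.22 fell too, as did Larp1b and the cap-binding protein Eif4e. Larp1 and Mtor were not called.

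Of the genes that make ribosomes, the 4 lists had 3 of 11, 5 of 21, 4 of 20 and 1 of 8 called, against 22.9% of all genes tested in either direction. By direction, 10.1% of all genes tested were called higher and 12.8% lower. At or above 20 CPM these shares were 16.1% and 12.4%. Of 11 RNA polymerase I genes, which transcribe ribosomal RNA, Polr1c, Rrn3 and Taf1d rose, with log2 fold changes of 0.23, 0.16 and 0.27, and 0 fell by edgeR, by an unadjusted p of 0.05 in edgeR or by DESeq2. Of 21 small-subunit assembly factors 4 rose, Utp3, Utp14a, Nop14 and Nop58, and Ltv1 fell with a log2 fold change of −0.39. Of 20 large-subunit assembly factors Gtpbp4, Ddx18 and Pes1 rose and Rrs1 fell with a log2 fold change of −0.31. Of 8 genes for pseudouridylation or nucleolar chaperones, the nucleolar protein Ncl rose by 0.11 on the log2 scale and 0 fell by edgeR, by an unadjusted p of 0.05 in edgeR or by DESeq2.

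The authors' deposited table of changed genes listed 2099 genes as higher and 1693 as lower. In the authors' deposited table, 11 members stood among the higher genes, 10 of them abundant, and 7 among the lower, all scarce. Of these 18 in the authors' deposited table, 13 were also called here. That table rests on the same 11 libraries, so it is no independent support. With DESeq2 here, 12.6% of all genes were called higher and 11.2% lower. By edgeR, 16.1% of genes at or above 20 CPM were called higher and 12.4% lower, against 4.98% and 13.1% under 20 CPM. The authors' deposited table held Rpl22, Rps3, Rplp0 and Rps7 as higher and Rpl9 as lower, which were not called here, and did not list Rpl36a and Rps4l.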

How the data were processed

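PolyA RNA was sequenced as 50-base single reads from TruSeq v2 libraries, per the labels' protocols. The submitters' processing notes name FastQC 0.11.5, STAR 2.5.2b, featureCounts from Subread 1.5.1, DESeq2 and mm10. They do not say which annotation was counted, with what strand option, or what became of multi-mapping reads. The deposited files hold raw read counts per gene. The authors' deposited comparison tables hold log2 fold changes, p-values and, per the file headers, normalized signal for each library. The labels give no batch. Counts were fitted with edgeR 4.0.16 (R 4.3.3): filterByExpr, TMM factors, quasi-likelihood test on all genes, Benjamini-Hochberg over 16235 genes, threshold 0.05. The fit was tested on simulated data with known changes. GENCODE M21 (GRCm38) gave symbols, coordinates and transcripts, and RefSeq (GRCm38.p6) the start windows. The kit does not mark strand, so overlapping and antisense genes cannot be told apart. Errors are SDs between libraries. Every called member is named but 1, with values in every library or group for those of the 5 lowest p in each direction, the 3 most abundant and the paralog pairs. The results of 5 genes are not reported here by name and stay in the counts. Members and lists were chosen with earlier results of these data known. Alternatives were DESeq2 1.42.0, other scalings and filters, a replicate block, leaving out each library, and summing members with the pseudogene rows named after them.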

Additional observations from a re-analysis of the deposited data

Results flagged for a closer look

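Among 52 groups of libraries examined for a single value far from the rest, 3 stood out, where chance gives about 1 in 20. Rps14 had 113.8 CPM in hypoxia 5, above 98.7 to 102.5 CPM in the other 4 hypoxia libraries. Rpl4 had 399.6 CPM in control 6, below 419 to 429 CPM in the other 5 control libraries. Rpl22l1 had 21.5 CPM in control 1, above 13.9 to 16.0 CPM in the other 5 control libraries. Rpl4 and Rps14 kept their calls when these libraries were left out, and Rpl22l1 was called higher without control 1.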

How the results depend on the processing

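The calls of Rpl4, Rpl32, Rpl7, Rps14, Rpl10a, Rpl21, Rpl27, Rpl34, Rpl5 and Rps18 held in every alternative that tested them, and no called member changed sign. Rpl23 lost its call in 10 of 19 alternatives, Rps24 in 5, Rpl36a in 2, and Rps4l in 13 of 18. Requiring a mean of at least 5 CPM left 4 members called lower, all scarce, since Rps18, Rpl27, Rpl34 and Rps4l were then not tested, and moved the median of the scarce members to −0.0573. Leaving out 1 library at a time gave 4 to 11 members called higher, 7 to 9 called lower, and a member median of −0.00963 to 0.0360, below 0 without hypoxia 1 and without control 2. It gave 4 to 10 abundant members called higher, 0 to 1 scarce members called higher, and a scarce median of −0.143 to −0.0719. No clear pairing by replicate number was seen: same-numbered deviations correlated at −0.10, 0.14, −0.06, −0.06 and 0.31, and 2 of 5 numbers correlated best with themselves. Whether the libraries were paired cannot be told from these few values. With the replicate block, 5 members were called higher and 6 lower. With members summed with the pseudogene rows named after them, the same 7 were called higher and the same 8 lower. Pseudogenes under other names, such as Gm11361, were not part of these sums. Low counts limit the scarce members.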
